A study of Homo sapiens with 18 samples.

Results

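Unirradiated A549 cells were compared with unirradiated BEAS-2B cells, each with 3 control libraries, so that 6 of the 18 libraries of the study entered the comparison and none of these had received radiation. A549 is a non-small cell lung cancer line grown from a human lung adenocarcinoma, and BEAS-2B is a bronchial epithelial line from non-cancerous airway, immortalised with an adenovirus and SV40 hybrid virus, whose T antigen binds the RB and p53 proteins. Both were kept in RPMI-1640 medium with 10% fetal bovine serum. The study used BEAS-2B as its normal lung epithelium and A549 and H446, a small cell lung cancer line, as tumour cells, each with libraries taken without radiation or after 10 Gy of X-rays, to ask how their responses differ. The comparison here gives the starting state of the first 2 lines. Each group is 1 cell line, so that what separates tumour from airway epithelium cannot be told apart from what separates these lines alone. The labels do not say whether the 3 libraries of a line came from separate cultures, and p-values then measure only the spread between these libraries.

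Of 18475 genes in the deposited table, 12467 had a value of at least 1 FPKM (fragments per kilobase of transcript, scaled to the mapped reads of the library) in at least 3 of the 6 libraries and were tested. Values were compared as log2(FPKM + 1). A difference is always A549 minus BEAS-2B on this scale and is given with its standard error, and it understates the fold of genes with low values. A gene is called different when its adjusted p from limma was under 0.05. The libraries of a line were close to each other, with Pearson correlations over genes of 0.997 to 0.998 in A549 and 0.995 to 0.998 in BEAS-2B, against 0.794 to 0.799 between the lines. Totals were 484169 to 501302 FPKM in A549 and 493839 to 529936 in BEAS-2B. The highest value in 5 of the 6 libraries was that of MTRNR2L2, whose sequence is nearly a copy of mitochondrial ribosomal RNA, so its reads are uncertain.

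Most genes differed. 4759 genes (38.2% of those tested) were higher in A549 and 5766 (46.3%) were higher in BEAS-2B. With a difference of at least 1 as well, 1648 genes (13.2%) were higher in A549 and 1820 (14.6%) in BEAS-2B. Under median of ratios scaling these counts were 1845 and 1595, so that which line had more depends on the scaling. The 3 values of A549 lay wholly above those of BEAS-2B for 38.7% of the genes tested and wholly below for 46.5%, and so did not overlap for 85.2%. The median absolute difference over all genes tested was 0.59, and the median difference was -0.08. A call alone is therefore the usual state of a gene here, and the counts in the gene groups below are read against these shares. Of the genes tested, 778 had at least 1 FPKM in each A549 library and in no BEAS-2B library, and 603 the reverse. Such genes passed the filter only through the line in which they are high.

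The 12 largest differences towards A549, among genes with a mean of at least 10 FPKM in the higher line, were led by a hair keratin, detoxifying enzymes and secreted ligands. KRT81, a type II keratin best known from hair, had 1637, 1722 and 1705 FPKM in the A549 libraries and 0.27, 0.05 and 0 in BEAS-2B, a difference of 10.58 ± 0.08. ALDH1A1, which oxidises retinal and other aldehydes, had 1523, 1525 and 1539 FPKM against 0.03, 0.03 and 0 (10.55 ± 0.05). Next came ALDH3A1 (9.20 ± 0.06), AKR1B10 (8.91 ± 0.05), KYNU of kynurenine breakdown (8.40 ± 0.05), the LIM protein gene CRIP1 (8.22 ± 0.09), TNS4 of focal adhesions (8.09 ± 0.06), CYP24A1, which inactivates vitamin D (8.03 ± 0.06), osteopontin SPP1 (7.93 ± 0.06), the EGF receptor ligand EREG (7.86 ± 0.06), the neutrophil chemokine CXCL5 (7.66 ± 0.08) and AKR1C2 (7.60 ± 0.07). All of these stood below 3 FPKM in every BEAS-2B library. KRT81 shares much sequence with other hair keratin genes, and the aldo-keto reductases with each other, so that the division of reads among such copies is uncertain.

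The 12 largest differences towards BEAS-2B included contractile, surface and cell cycle genes. BEX1, a small gene of the X chromosome, was listed at 0 in each A549 library and at 278, 254 and 299 FPKM in BEAS-2B (-8.11 ± 0.07). CDKN2A, which encodes the cell cycle inhibitors p16 and ARF, was listed at 0 in A549 as well, against 158, 166 and 174 FPKM (-7.38 ± 0.06). The others were the myosin light chain gene MYL9 (-7.36 ± 0.06), the basal keratin gene KRT17 (-7.19 ± 0.06), the natriuretic peptide gene NPPB (-7.18 ± 0.07), the surface glycoprotein gene THY1 (-6.81 ± 0.06), the metallothionein gene MT1E (-6.72 ± 0.07), the tight junction gene CLDN11 (-6.49 ± 0.10), serum amyloid SAA1 (-6.26 ± 0.12), the interferon-induced IFITM1 (-6.23 ± 0.14), the retinol binding RBP7 (-6.17 ± 0.08) and tissue factor F3 (-5.86 ± 0.07). BEX1, CDKN2A, NPPB, THY1 and RBP7 were listed at 0 in every A549 library. Over these 24 genes the adjusted p lay between 7.8e-17 and 5.7e-12.

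**Figure D1:**
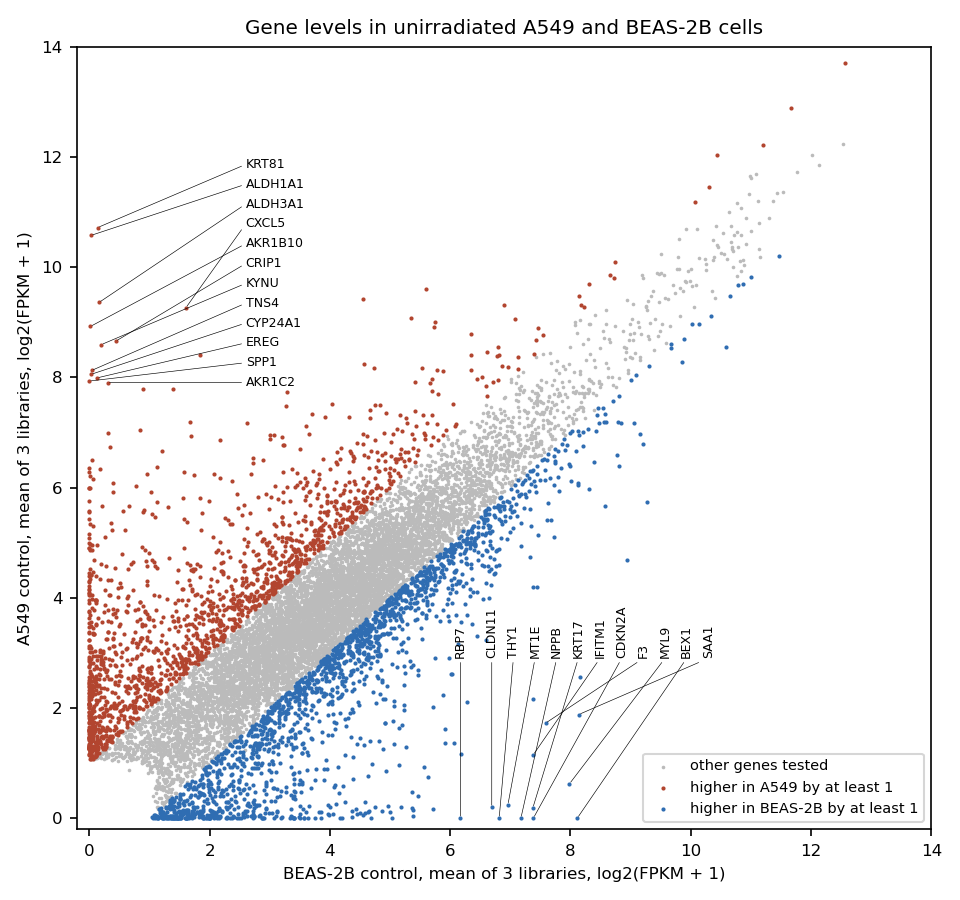
Mean log2(FPKM + 1) of 3 A549 control libraries (vertical axis) against that of 3 BEAS-2B control libraries (horizontal axis) for the genes tested, leaving out a few genes that mark sex. Red points are genes called and higher in A549 by at least 1, blue points those higher in BEAS-2B by at least 1, and the 24 genes with the largest differences are named, with KRT81 (10.58) at one end and BEX1 (-8.11) at the other.

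The labelled tissue was checked against marker genes. Both lines come from lung epithelium, and both had simple keratins, while most markers of differentiated lung cells were near 0. KRT8, a keratin of simple epithelia, had 519, 539 and 541 FPKM in A549 and 517, 548 and 500.3 in BEAS-2B, which overlapped (0.03 ± 0.06, adjusted p = 0.65). Of 8 epithelial markers, 6 were tested, 2 were higher in A549, 3 in BEAS-2B and KRT8 was not called. Through A549 alone 1 of them passed the filter, and 2 through BEAS-2B alone. Another 2 of the 8 stayed under 1 FPKM in all 6 libraries. The 5 surfactant genes stayed at or below 0.22 FPKM in all 6 libraries, and 9 of 12 alveolar type II markers stayed under 1 FPKM in all 6, with ABCA3 (8.57, 8.74 and 8.41 and 4.07, 5.31 and 3.87), LPCAT1 and ETV5 above. KRT5 and KRT14 of airway basal cells stayed at or below 0.03 FPKM, while the sum over 8 basal markers, 46.5 to 47.6 FPKM in A549 and 30.3 to 33.8 in BEAS-2B, came mostly from ITGA6 (0.85 ± 0.07) and S100A2 (0.37 ± 0.10). DLK2, the third basal marker tested, was higher in BEAS-2B (1.57, 1.77 and 1.11 against 6.08, 6.56 and 5.85 FPKM, -1.54 ± 0.10). Of the secretory markers in the table, MUC5AC alone was tested, with 4.5, 4.4 and 4.27 FPKM in A549 and 0 in each BEAS-2B library.

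Markers of other cell types were low or mixed. All 7 endothelial markers stayed under 1 FPKM in all 6 libraries, and PTPRC, which marks leukocytes, was listed at 0 in all. Summed over 7 leukocyte markers, the level was 27.5 to 31.1 FPKM in A549, nearly all from CD68, a lysosomal gene, and 17.6 to 19.4 in BEAS-2B, where CD14 had 7.8, 9.2 and 7.38. Summed over 10 fibroblast markers, it was 12.6 to 13.9 FPKM in A549 and 130.4 to 145.5 in BEAS-2B, nearly all from THY1 and PDGFRB (11.3, 13.9 and 9.78 in BEAS-2B, at most 0.2 in A549), while PDGFRA went the other way, with 1.89, 1.93 and 1.64 FPKM in A549 and at most 0.06 in BEAS-2B (1.43 ± 0.07), and COL3A1, DCN, PRRX1 and FAP stayed under 1 in all 6 libraries. Of 4 neuroendocrine markers in the table, SYP was higher in A549 (1.07 ± 0.07) and NCAM1 in BEAS-2B (-1.97 ± 0.10). Of 6 ciliated markers, DNAH5 was higher in A549 (0.81 ± 0.06) and CAPS in BEAS-2B (-0.48 ± 0.09). In bulk RNA, fewer cells of a kind and less RNA per cell cannot be told apart. The part of such cells in the differences between the lines was not tested.

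**Figure D2:**
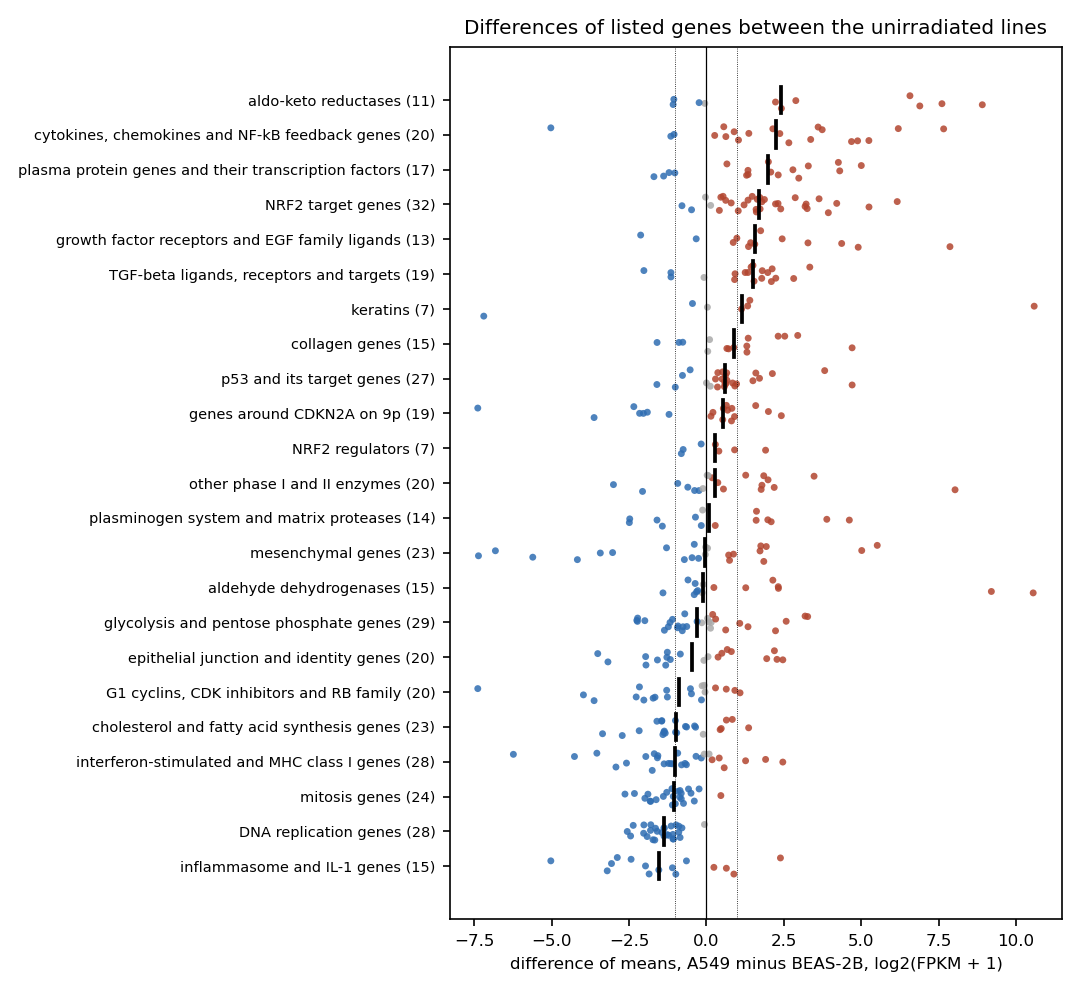
Differences A549 minus BEAS-2B on the log2(FPKM + 1) scale for the tested members of 23 gene lists, ordered by the list's median (black bar), with the number tested in brackets. Red points were called higher in A549, blue points higher in BEAS-2B and grey points were not called, and the dotted lines mark differences of 1 in either direction. The median of aldo-keto reductases was 2.42 and that of inflammasome genes -1.54, and the order of the lists depends on the filter on low values.

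Keratins and junction genes did not divide by one direction. Keratins are the intermediate filaments of epithelial cells, and each cell type uses its own pairs. Of 16 keratin genes in the table, 7 were tested. KRT81, KRT7 (1.40 ± 0.06), KRT19 (1.33 ± 0.07) and KRT80 (1.13 ± 0.07) were higher in A549, KRT17 and KRT18 (-0.45 ± 0.06) were higher in BEAS-2B, and KRT8 was not called. KRT17 stood at 0.09, 0.18 and 0.14 FPKM in A549 and 162, 174 and 159 in BEAS-2B. KRT86 and KRT15 did not reach the filter, with at most 1.1 and 0.44 FPKM, and the rest, KRT5, KRT6A, KRT6B, KRT14, KRT16, KRT20 and KRT23, stayed under 0.2 on average in either line.

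Among 31 genes of epithelial junctions and identity, 20 were tested, 8 were higher in A549, 10 in BEAS-2B and 2 were not called, with a median of -0.46. Such counts are near the shares over all genes tested, 38.2% and 46.3%. CDH1, the E-cadherin of adherens junctions, had 6.74, 6.98 and 7.44 FPKM in A549 and 0.31, 0.53 and 0.54 in BEAS-2B (2.47 ± 0.08). The tight junction scaffold TJP1 was higher in A549 (2.28 ± 0.08). A pair of membrane protease inhibitors was split, with SPINT2 higher in A549 (2.19 ± 0.06) and SPINT1 in BEAS-2B (-3.18 ± 0.10). CLDN1 was higher in A549 (1.95 ± 0.07), and desmoplakin DSP (-1.96 ± 0.11), MAL2 (-1.95 ± 0.06), EPCAM (-1.17 ± 0.11) and CLDN7 (-1.26 ± 0.11) in BEAS-2B. JUP (adjusted p = 0.47) and AP1M2 (adjusted p = 0.62) were not called. Of the 10 genes higher in BEAS-2B, 7 had passed the filter through that line alone, at a few FPKM, and among genes with at least 1 FPKM in all 6 libraries the median of the list was 0.50 in place of -0.46. GRHL2, OVOL1, ST14, RAB25 and PRSS8 stayed under 0.2 FPKM on average in either line.

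Mesenchymal genes were as divided, with 9 of 23 tested higher in A549, 11 in BEAS-2B and 3 not called. These counts are close to the shares over all genes tested, 38.2% and 46.3%. S100A4, a calcium-binding protein gene, had 143, 147 and 144 FPKM in A549 and 1.83, 2.44 and 2.33 in BEAS-2B (5.52 ± 0.07), and the cadherin gene CDH11 had 49.8, 47.8 and 52.8 against 0.66, 0.62 and 0.47 (5.01 ± 0.07). ACTA2 (1.93 ± 0.08) and fibronectin FN1 (1.85 ± 0.14) were also higher in A549. In BEAS-2B the smooth muscle genes MYL9 and TAGLN (-4.17 ± 0.08), THY1 and the matrix protein gene SPARC were higher. SPARC had 4.72, 4.77 and 5.13 FPKM in A549 and 276, 319 and 264 in BEAS-2B (-5.61 ± 0.07). The mesenchymal filament gene VIM was high in both lines, at 1451, 1523 and 1438 FPKM in A549 and 851, 1024 and 819 in BEAS-2B (0.72 ± 0.09). CALD1 (adjusted p = 0.52) and AXL (adjusted p = 0.69) were not called.

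Collagen genes leaned towards A549, and genes of the plasminogen system were divided. Of 15 collagen genes tested, 10 were higher in A549 and 3 in BEAS-2B, with a median of 0.88. COL5A2 had 120.3, 113 and 115 FPKM in A549 and 3.34, 4.01 and 3.19 in BEAS-2B (4.70 ± 0.07), and COL7A1 (2.95 ± 0.07), COL4A1 (2.53 ± 0.12) and COL4A6 (2.32 ± 0.07), the last pair being basement membrane collagens, followed. COL12A1 (-1.59 ± 0.09), COL13A1 (-0.89 ± 0.08) and COL6A1 (-0.77 ± 0.10) were higher in BEAS-2B. COL1A1, the main fibrillar collagen gene, stood at 8.88, 8.92 and 8.1 and 7.73, 9.89 and 7.58 FPKM and was not called, nor was COL18A1. In the plasminogen system, the urokinase gene PLAU (1.98 ± 0.07) and the inhibitor genes SERPINB2 (4.61 ± 0.07) and SERPINE2 (3.89 ± 0.10) were higher in A549, as was MMP7 (2.09 ± 0.07), while tissue activator PLAT (-1.60 ± 0.08), MMP14 (-2.49 ± 0.10), TIMP3 (-2.48 ± 0.10) and ADAMTS1 (-1.42 ± 0.07) were higher in BEAS-2B. The urokinase receptor gene PLAUR was not called (-0.12 ± 0.07, adjusted p = 0.12). In all, 7 of 14 such genes were higher in A549 and 6 in BEAS-2B.

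NRF2 target genes were mostly higher in A549. NRF2, encoded by NFE2L2, is a transcription factor that binds antioxidant response elements beside a small MAF protein and switches on genes for glutathione, NADPH and the export of conjugates. KEAP1 and CUL3 mark it for degradation, and BACH1 competes for its sites. A549 is known to carry an altered KEAP1 gene. Of 32 targets tested, 28 were higher in A549, 23 of them by at least 1, 2 were higher in BEAS-2B and 2 were not called. The median difference was 1.68, beside -0.08 over all genes tested, and 3 of the 28 had passed the filter through A549 alone.

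The 2 largest differences were in transporters. ABCC2, which exports glutathione conjugates, had 82.7, 77.8 and 78.98 FPKM in A549 and 0.11, 0.18 and 0.1 in BEAS-2B (6.16 ± 0.06), and SLC7A11, the cystine importer, had 83.3, 75.4 and 88.6 against 1.27, 1.19 and 1.11 (5.25 ± 0.07). TRIM16L (4.21 ± 0.07) and UGDH, which makes the glucuronate donor (3.94 ± 0.05), came next. The quinone reductase gene NQO1 had 516, 525 and 499 FPKM against 51.5, 50.5 and 57.05 (3.25 ± 0.06). PGD, which makes NADPH in the pentose phosphate pathway (3.19 ± 0.06), and malic enzyme ME1 (1.72 ± 0.05) were also higher in A549. The smallest differences among targets higher in A549 were in GCLM of glutathione synthesis (0.54 ± 0.06) and heme oxygenase HMOX1 (12.2, 14.2 and 12.3 against 8.51, 9.78 and 9.91 FPKM, 0.42 ± 0.08), beside PRDX1 (0.47 ± 0.09). The thioredoxin genes TXN (adjusted p = 0.19) and TXNRD1 (adjusted p = 0.68) were high in both lines and not called, and the carbonyl reductases CBR1 (-0.48 ± 0.07) and CBR3 (-0.79 ± 0.06) were higher in BEAS-2B. GPX2 did not reach the filter, with 1.76, 1.9 and 0.97 FPKM in A549 and 0, 0.13 and 0 in BEAS-2B (exact permutation test, two-sided, p = 0.10, the smallest that 3 against 3 libraries allow).

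The regulators had a median difference of 0.29, beside 1.68 for the targets. NFE2L2 had 96.1, 91.8 and 95.02 FPKM in A549 and 49.2, 49.5 and 50.5 in BEAS-2B (0.91 ± 0.05), MAFK 42.1, 47.2 and 42.8 against 11.03, 10.5 and 11.4 (1.91 ± 0.06), MAFG (0.40 ± 0.05) and CUL3 (0.29 ± 0.05) were slightly higher in A549, and KEAP1 was lower (15.1, 16.2 and 15.7 against 17.7, 18.4 and 17.1 FPKM, -0.17 ± 0.06, adjusted p = 0.018), a call that was lost under quantile and median of ratios scaling, with the GC trend removed, and without replicate 1 or 3 of A549 (-0.14 and -0.17). MAFF (-0.75 ± 0.08) and BACH1 (-0.81 ± 0.07) were higher in BEAS-2B. MAFK was the only one of these 7 genes with a difference of at least 1.

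The antioxidant response element was searched as TGACNNNGC on either strand in the 250 bases before and 50 after each gene's start, as RefSeq gives them for GRCh38.p14. It was found in 9 of 24 NRF2 targets with a promoter in that table (37.5%) in 13.6% of all 27305 promoters and in 1526 of the 10181 promoters of genes tested. Of the 9 targets with it, 6 were higher in A549 (ABCB6, CYP4F11, GCLM, ME1, PGD and PIR), CBR1 was higher in BEAS-2B, TXNRD1 was not called and GPX2 was not tested, while of 15 targets without it 14 were higher in A549. The letters thus did not separate the targets by direction. Over all promoters with the element, 559 genes were higher in A549, 725 in BEAS-2B, 242 were not called and 2176 were not tested. In the families described below, it was found in 1 of 10 aldo-keto reductases and 0 of 14 aldehyde dehydrogenases. The promoters of PGD (chr1:10398814-10399113, plus strand) and ME1 (chr6:83431002-83431301, minus strand), a pair of NADPH-producing enzymes, are shown with the element in capitals. The first of the 2 matches of ME1 holds the letters TGACTCA, which also make an AP-1 site.
PGD: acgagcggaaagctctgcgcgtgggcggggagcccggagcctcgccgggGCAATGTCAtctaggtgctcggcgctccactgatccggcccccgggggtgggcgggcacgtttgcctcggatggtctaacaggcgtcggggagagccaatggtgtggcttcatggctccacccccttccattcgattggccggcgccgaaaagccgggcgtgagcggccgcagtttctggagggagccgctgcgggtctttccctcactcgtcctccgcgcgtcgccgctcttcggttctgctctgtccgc
ME1: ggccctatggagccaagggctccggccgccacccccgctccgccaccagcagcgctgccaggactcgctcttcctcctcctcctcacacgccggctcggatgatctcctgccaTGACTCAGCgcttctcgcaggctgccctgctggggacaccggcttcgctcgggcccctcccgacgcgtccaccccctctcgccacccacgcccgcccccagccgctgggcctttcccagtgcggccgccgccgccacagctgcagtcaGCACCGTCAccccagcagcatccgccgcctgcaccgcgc

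Aldo-keto reductases reduce carbonyls on sugars, steroids and lipid products. Of 13 in the table, 11 were tested, 7 were higher in A549, all by at least 1, and 3 in BEAS-2B. Of these, 4 passed the filter through A549 alone and 2 through BEAS-2B alone, and the median of 2.42 became 1.18 with at least 1 FPKM asked in all 6 libraries. AKR1B10 stood at 486, 484 and 487 FPKM in A549 and 0, 0.04 and 0 in BEAS-2B. Of the steroid-reducing AKR1C genes, 3 were high in A549, AKR1C1 at 226, 230.4 and 205 (6.89 ± 0.07), AKR1C2 at 246, 243 and 229.6 and AKR1C3 at 347, 347 and 326 FPKM (6.57 ± 0.08), against at most 1, 0.32 and 2.9 in BEAS-2B. AKR1B1, the aldose reductase, was expressed in both lines, at 628, 650.4 and 627 and 115, 114 and 124 FPKM (2.42 ± 0.06). AKR1B15 (2.89 ± 0.08) and AKR1E2 (2.23 ± 0.07) were low but higher in A549. AKR1A1 was not called (-0.05 ± 0.06, adjusted p = 0.4), and AKR7A2 (-0.24 ± 0.08, a call lost under quantile and median of ratios scaling, with the GC trend removed and without replicate 1 or 2 of A549 or replicate 3 of BEAS-2B), AKR7L (-1.05 ± 0.10) and AKR7A3 (-1.08 ± 0.12) were higher in BEAS-2B. AKR1C4 and AKR1D1 were at or near 0 in all 6 libraries. H446, the other cancer line, had means of 146, 142 and 216 FPKM for the AKR1C genes in that order and 0.267 for AKR1B10.

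Aldehyde dehydrogenases were led by a few members. Beside ALDH1A1 and ALDH3A1, the mitochondrial ALDH2 (78.6, 80.2 and 79.3 against 14.8, 15.6 and 14.8 FPKM, 2.32 ± 0.05) and ALDH1L2 (2.32 ± 0.08) were higher in A549. ALDH7A1 was the only one of 15 tested that was higher in BEAS-2B by at least 1 (29.6, 31.02 and 30.9 against 82.6, 80.2 and 84.2 FPKM, -1.40 ± 0.05), and ALDH18A1 (-0.60 ± 0.05), ALDH16A1 (-0.39 ± 0.07) and ALDH5A1 (-0.36 ± 0.08) followed. ALDH1A3 (adjusted p = 0.21) and ALDH4A1 (adjusted p = 0.092) were not called. In all, 7 were higher in A549 and 6 in BEAS-2B, with a median of -0.10. Among 20 other enzymes of drug and steroid metabolism tested, 11 were higher in A549, with CYP24A1, UGT2B7 (3.48 ± 0.08), UGT1A6 (2.19 ± 0.12) and MGST1 (1.99 ± 0.06) at the top, and 6 in BEAS-2B, led by CYP27A1 (-3.003 ± 0.07), GSTM3 (-2.06 ± 0.09), MGST3 (-0.93 ± 0.08) and MGST2 (-0.60 ± 0.09). Of these, 6 and 1 passed the filter through that line alone, and the median of 0.28 was 0.02 with at least 1 FPKM in all 6 libraries, so that the count gives no direction for the list. GSTO1 (adjusted p = 0.51) and ADH5 (adjusted p = 0.15) were not called.

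**Figure D3:**
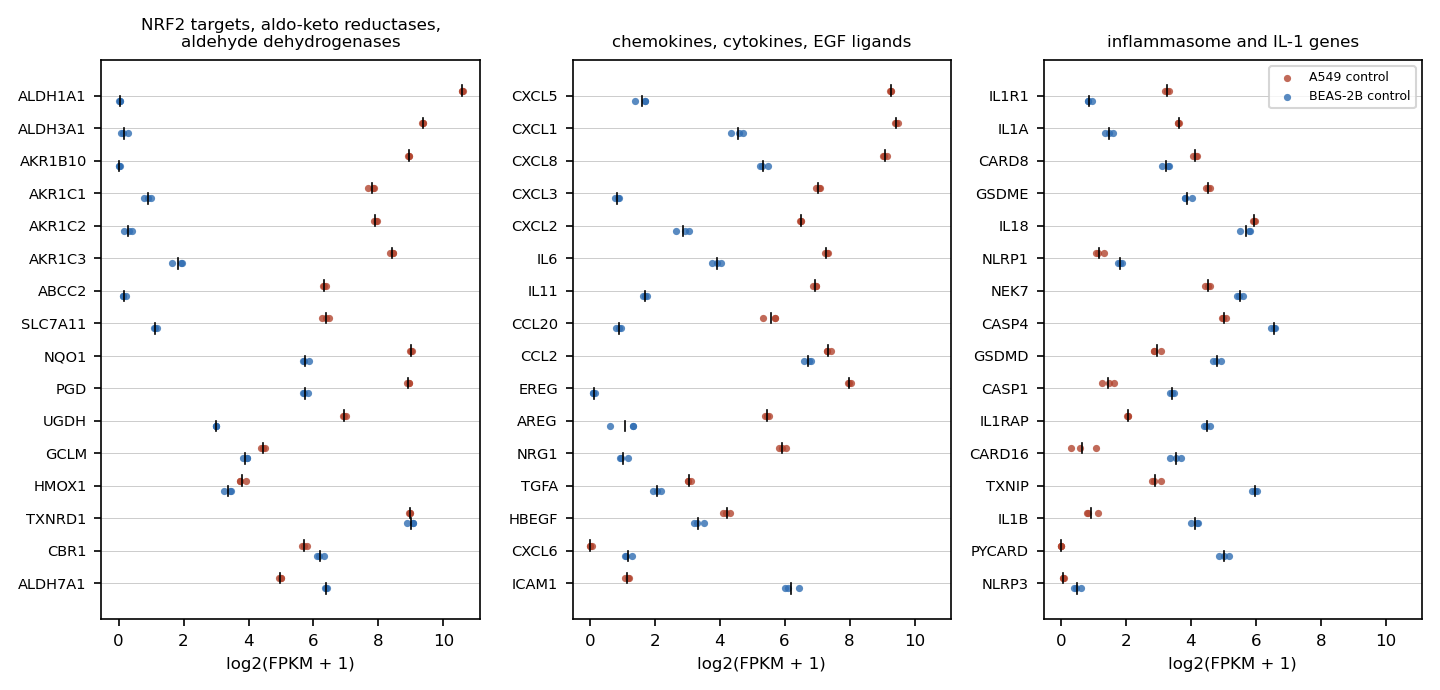
Level in each control library, log2(FPKM + 1), for 16 genes in each of 3 groups. Each point is 1 library, red for A549 and blue for BEAS-2B, and the black bars are means of 3. ALDH1A1 lies near 10.6 in A549 and near 0 in BEAS-2B, TXNRD1 overlaps between the lines, and PYCARD lies at 0 in A549.

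Chemokines and cytokines of the NF-kB type were mostly higher in A549. CXC chemokines with an ELR motif draw neutrophils, IL6, IL11 and LIF act through the shared receptor chain gp130, and NFKBIA and TNFAIP3 dampen the NF-kB factor that induces many of them. All 20 genes of this list that were tested were called, 17 of them higher in A549 and 13 of these by at least 1, with a median of 2.26 (1.03 with no filter on low values, which adds 5 low genes). Over all genes tested, 84.4% were called and 38.2% were higher in A549. In this list, 2 genes passed the filter through A549 alone and 2 through BEAS-2B alone. CXCL5 had 623, 604 and 615 FPKM in A549 and 2.26, 2.28 and 1.63 in BEAS-2B. CXCL1 had 718, 687 and 667 against 19.3, 25.4 and 23.1 (4.88 ± 0.08), and CXCL3 136, 132 and 125 against 0.72, 0.82 and 0.85 (6.20 ± 0.06). CXCL8 was expressed in both lines, at 566, 522 and 532 and 38.5, 36.7 and 43.8 FPKM (3.74 ± 0.07).

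Among the gp130 cytokines, IL11 had 118, 125 and 124 FPKM in A549 and 2.26, 2.36 and 2.12 in BEAS-2B (5.25 ± 0.06), and IL6 156, 159 and 149.9 against 12.7, 15.6 and 14.2 (3.37 ± 0.07). CCL2, which draws monocytes, was higher in A549 by less (0.63 ± 0.07). The feedback genes TNFAIP3 (2.37 ± 0.09) and NFKBIA (1.37 ± 0.06) were higher in A549 too. The exceptions were ICAM1, the leukocyte adhesion receptor, with 1.3, 1.27 and 1.14 FPKM in A549 and 67.2, 86.8 and 63.4 in BEAS-2B (-5.02 ± 0.10), CXCL6 (0, 0.04 and 0 against 1.13, 1.45 and 1.18 FPKM, -1.15 ± 0.07) and IL24 (-1.05 ± 0.08). CXCL1, CXCL2 and CXCL3 are close copies of each other, and reads may have been shared among them.

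The NF-kB site GGAATTTCC, searched on either strand in the same 300 bases, was found in 0.472% of all promoters, 0.471% of those of genes tested and in 10 of the 20 promoters of this list in the RefSeq table. Of these 10 genes, 6 were higher in A549 (CXCL1, CXCL2, CXCL3, CXCL5, CXCL8 and NFKBIA), CXCL6 and ICAM1 were higher in BEAS-2B, and CXCL10 and CXCL11 were not tested. Of the 10 without it, 7 were higher in A549 and 1 in BEAS-2B. Over all promoters, 24 genes with the site were higher in A549, 17 in BEAS-2B, 7 were not called and 81 were not tested. Over those without it, 3818 were higher in A549, 4712 in BEAS-2B and 1603 were not called. The promoters of 3 chemokines higher in A549 and of both genes higher in BEAS-2B are shown, with the site in capitals. They lie at chr4:73869143-73869442 (plus strand), chr4:73998628-73998927 (minus strand), chr4:73740319-73740618 (plus strand), chr4:73836428-73836727 (plus strand) and chr19:10270870-10271169 (plus strand) of GRCh38.p14.
CXCL1: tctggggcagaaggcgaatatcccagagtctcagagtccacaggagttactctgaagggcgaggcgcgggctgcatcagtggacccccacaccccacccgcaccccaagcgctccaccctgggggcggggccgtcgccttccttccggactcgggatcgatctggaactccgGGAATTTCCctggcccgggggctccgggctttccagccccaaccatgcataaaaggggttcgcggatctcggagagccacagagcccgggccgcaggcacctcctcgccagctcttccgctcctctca
CXCL5: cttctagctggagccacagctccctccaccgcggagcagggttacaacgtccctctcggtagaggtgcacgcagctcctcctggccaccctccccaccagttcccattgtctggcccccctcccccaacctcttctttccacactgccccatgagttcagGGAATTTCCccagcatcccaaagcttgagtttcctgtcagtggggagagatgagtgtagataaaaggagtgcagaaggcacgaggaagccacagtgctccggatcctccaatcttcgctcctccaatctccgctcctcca
CXCL8: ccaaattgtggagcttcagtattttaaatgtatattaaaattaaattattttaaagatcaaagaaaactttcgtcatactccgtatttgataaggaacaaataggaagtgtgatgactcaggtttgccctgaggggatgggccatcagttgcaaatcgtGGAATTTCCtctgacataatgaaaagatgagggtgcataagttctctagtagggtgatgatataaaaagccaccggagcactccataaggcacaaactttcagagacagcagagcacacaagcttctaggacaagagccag
CXCL6: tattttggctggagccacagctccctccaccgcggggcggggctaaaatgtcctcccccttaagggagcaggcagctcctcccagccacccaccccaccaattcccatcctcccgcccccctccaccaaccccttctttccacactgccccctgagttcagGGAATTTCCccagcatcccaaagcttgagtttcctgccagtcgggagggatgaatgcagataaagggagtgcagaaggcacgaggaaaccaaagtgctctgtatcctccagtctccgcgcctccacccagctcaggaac
ICAM1: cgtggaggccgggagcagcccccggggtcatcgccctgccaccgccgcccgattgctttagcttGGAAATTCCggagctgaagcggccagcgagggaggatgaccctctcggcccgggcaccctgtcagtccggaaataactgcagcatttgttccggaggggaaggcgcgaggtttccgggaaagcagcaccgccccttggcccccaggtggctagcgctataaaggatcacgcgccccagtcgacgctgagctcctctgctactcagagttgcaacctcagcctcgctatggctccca
The sites of CXCL5 and CXCL6 begin 90 and 89 bases before the gene's start, in like surroundings. CXCL5 was higher in A549 and CXCL6 in BEAS-2B. As CXCL6 passed the filter through BEAS-2B alone, the filter fixed its direction, and nothing about the site is read from this pair.

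Most growth factor receptor and EGF family ligand genes were higher in A549. EREG had 262, 246 and 253 FPKM in A549 and 0.08, 0.08 and 0.12 in BEAS-2B, the neuregulin gene NRG1 59.7, 55.7 and 64.6 against 0.97, 0.92 and 1.24 (4.90 ± 0.08), amphiregulin AREG 40.9, 43.1 and 45.3 against 1.51, 1.52 and 0.54 (4.37 ± 0.16), and EPGN was higher as well (3.28 ± 0.07). EGFR had 64.7, 58.3 and 65.8 FPKM against 10.5, 12.5 and 9.34 (2.45 ± 0.09). In all, 11 of 13 genes of this list tested were higher in A549, 9 by at least 1 and 3 with the filter passed through A549 alone, and the receptor genes ERBB3 (1.01, 0.64 and 0.85 against 6.91, 7.35 and 6.65 FPKM, -2.12 ± 0.09) and ERBB2 (-0.33 ± 0.09) were higher in BEAS-2B.

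The TGF-beta pathway, in which latent ligands bound to LTBP proteins act through TGFBR1 and TGFBR2 on SMAD factors, leaned the same way, with 15 of 19 genes higher in A549, 2 of which passed the filter through that line alone, and 3 in BEAS-2B. The ligand gene TGFB1 had 109, 114 and 106 FPKM in A549 and 20.1, 26.2 and 21.2 in BEAS-2B (2.24 ± 0.08), and LTBP2 (3.34 ± 0.09), LTBP3 (2.12 ± 0.07) and BMP2 (2.82 ± 0.10) were higher too. BMP4 (-2.02 ± 0.09) and the matricellular genes CCN1 (191, 188 and 186 against 403, 479 and 380.3 FPKM, -1.15 ± 0.08) and CCN2 (-1.15 ± 0.09) were higher in BEAS-2B. TGFB2 was not called, at 49.8, 48.6 and 47.8 and 53.03, 57.1 and 45.2 FPKM (-0.08 ± 0.08, adjusted p = 0.35).

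Inflammasome genes were mostly higher in BEAS-2B. The study examined NLRP3 protein in A549 and H446 too, and followed the NLRP3 inflammasome in BEAS-2B and other airway epithelial cells. In that complex a sensor such as NLRP3 joins the adaptor ASC, encoded by PYCARD, to caspase-1, which cuts the precursors of IL-1 beta and IL-18 and the pore protein gasdermin D. Of 15 genes tested, 11 were higher in BEAS-2B, 9 by at least 1, and 4 in A549, with a median of -1.54 (-0.94 with no filter on low values). PYCARD, at chr16:31201486-31202760 of GRCh38, was listed at 0 in each A549 library and had 31.3, 28.3 and 35.5 FPKM in BEAS-2B (-5.03 ± 0.08). CASP1 had 2.08, 1.39 and 1.79 FPKM in A549 and 10.2, 9.26 and 9.69 in BEAS-2B (-1.97 ± 0.09), IL1B 1.22, 0.8 and 0.73 against 15.1, 17.5 and 17.2 (-3.20 ± 0.10), and GSDMD 6.32, 6.33 and 7.51 against 26.1, 24.8 and 29.6 (-1.85 ± 0.08).

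The sensor genes were low in both lines. NLRP3 stayed under the filter, with 0.04, 0.07 and 0.04 FPKM in A549 and 0.38, 0.54 and 0.32 in BEAS-2B, which did not overlap (exact permutation test, two-sided, p = 0.10, the smallest the design allows). NLRC4 was low and overlapped (0.21, 0.22 and 0.34 against 0.35, 0.1 and 0.2 FPKM), AIM2 did not exceed 0.11 in any library, and NLRP1 was higher in BEAS-2B (1.1, 1.49 and 1.2 against 2.69, 2.4 and 2.51 FPKM, -0.65 ± 0.08). The NLRP3 partner NEK7 (-0.99 ± 0.07) and the thioredoxin inhibitor TXNIP (7.42, 6.26 and 5.99 against 58.6, 65.2 and 62.6 FPKM, -3.07 ± 0.08) were higher in BEAS-2B, and so were CASP4 of the noncanonical pathway (-1.54 ± 0.06), GSDMB (-1.10 ± 0.12), the coreceptor IL1RAP (-2.43 ± 0.07) and CARD16 (-2.88 ± 0.16), which resembles part of CASP1 and may share its reads. The ATP receptor gene P2RX7 had 0.1, 0.09 and 0.09 FPKM in A549 and 0.96, 1.12 and 1.01 in BEAS-2B and was not tested.

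The 4 genes higher in A549 were the receptor IL1R1 (8.99, 8.66 and 8.22 against 0.8, 0.93 and 0.78 FPKM, 2.39 ± 0.07), CARD8 (0.89 ± 0.07), the gasdermin GSDME (0.64 ± 0.07) and IL18, which was well expressed in both lines at 60.9, 62.6 and 59.4 and 55.1, 45.2 and 54.6 FPKM (0.24 ± 0.07, adjusted p = 0.01). IL1A, listed among the cytokines, was also higher in A549 (2.14 ± 0.08). CASP5 and the receptor antagonist IL1RN were at or near 0 in all 6 libraries. H446 controls had 0.61 to 1.25 FPKM of PYCARD, 19.8 to 22.9 of CASP1 and 14.2 to 14.8 of IL1B.

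Interferon-stimulated and MHC class I genes leaned towards BEAS-2B, with 20 of 28 tested higher there, 14 by at least 1, and 6 higher in A549 (median -1.02). The class I heavy chains HLA-B and HLA-C, which present peptides to T cells, were lower in A549. HLA-B had 22.8, 27.1 and 24.3 FPKM in A549 and 473, 529 and 475 in BEAS-2B (-4.26 ± 0.07), and HLA-C 45.5, 52.7 and 50.6 against 365, 408 and 374 (-2.92 ± 0.07). Their shared light chain B2M was lower by less (-1.11 ± 0.09). These genes vary between people and resemble each other, so that values mapped to 1 reference are uncertain. IFITM3 (54.3, 54.1 and 48.5 against 573, 679.9 and 604 FPKM, -3.54 ± 0.07) and IFITM1, restriction factors against viruses, were lower in A549. The antiviral genes IFI44L (2.47 ± 0.09), OAS1 (1.91 ± 0.10), IFI44 (1.26 ± 0.08) and the factor IRF1 (0.57 ± 0.07) were higher in A549, and TAPBP (adjusted p = 0.3) and OAS3 (adjusted p = 0.44) were not called.

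Genes that copy DNA were higher in BEAS-2B almost without exception. The MCM proteins form the replicative helicase, PCNA and the RFC proteins the sliding clamp and its loader, and E2F factors, held in check by RB, drive their genes at the end of G1. Of 28 replication genes tested, 27 were higher in BEAS-2B, 22 by at least 1, none was higher in A549 and GINS3 was not called (adjusted p = 0.39). The median was -1.37. MCM4 had 14.4, 14.3 and 15.8 FPKM in A549 and 91.1, 96.8 and 88.7 in BEAS-2B (-2.56 ± 0.06), the flap nuclease gene FEN1 17.7, 17.4 and 18.3 against 99.6, 101 and 105 (-2.45 ± 0.05), MCM2 13.6, 13.3 and 14.2 against 68.3, 81.9 and 74.5 (-2.36 ± 0.07), and MCM3 19.4, 18.6 and 19.6 against 81.3, 83.8 and 78.8 (-2.03 ± 0.05). PCNA, the most abundant of the list, had 141, 144 and 146 against 459, 444 and 476 (-1.67 ± 0.05).

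Mitosis genes followed, with 23 of 24 higher in BEAS-2B, 13 by at least 1, and CENPE alone higher in A549 (0.47 ± 0.07). The kinetochore gene NDC80 had 11.3, 10.4 and 10.6 FPKM in A549 and 70.3, 69.1 and 76.2 in BEAS-2B (-2.63 ± 0.06), and KIF20A (-2.32 ± 0.05), TTK (-1.99 ± 0.07) and securin PTTG1 (-1.89 ± 0.07) came next. The values do not give the share of cells in each phase or the rate of division. H446 lay between the lines for FEN1 (79.1 FPKM) and MCM4 (69.2) and above both for MCM3 (102).

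An E2F site, TTTGGCGC or TTTCCCGC on either strand, was found in the 300 bases around the start of 13 of 25 replication genes in the RefSeq table, 1 of 20 mitosis genes, 3.82% of the promoters of genes tested and 2.31% of all promoters. Of the 13 replication genes with it, 12 were higher in BEAS-2B, as were all 12 without it. Over all promoters with the site, 240 genes were higher in BEAS-2B, 84 in A549, 65 were not called and 242 were not tested. Over those without it, 4489 were higher in BEAS-2B, 3758 in A549 and 1545 were not called. The promoters of MCM3 (chr6:52284693-52284992, minus strand) and PCNA (chr20:5126573-5126872, minus strand), a helicase subunit and the clamp, are shown with the site in capitals.
MCM3: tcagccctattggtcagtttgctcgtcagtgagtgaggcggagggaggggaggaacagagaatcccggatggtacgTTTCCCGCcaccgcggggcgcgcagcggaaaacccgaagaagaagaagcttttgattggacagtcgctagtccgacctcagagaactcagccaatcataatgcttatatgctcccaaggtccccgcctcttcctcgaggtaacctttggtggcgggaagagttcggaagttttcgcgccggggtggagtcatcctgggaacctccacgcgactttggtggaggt
PCNA: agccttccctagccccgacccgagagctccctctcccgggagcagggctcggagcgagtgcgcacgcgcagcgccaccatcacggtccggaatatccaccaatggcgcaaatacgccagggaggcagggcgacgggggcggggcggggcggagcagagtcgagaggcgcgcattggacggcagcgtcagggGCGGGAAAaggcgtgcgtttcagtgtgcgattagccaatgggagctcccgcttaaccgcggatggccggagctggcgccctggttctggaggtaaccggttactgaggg

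Of 20 regulators of G1 tested, 13 were higher in BEAS-2B and 4 in A549, with a median of -0.89 (-0.52 with no filter on low values and -0.50 with at least 1 FPKM in all 6 libraries). Cyclin E2, CCNE2, had 1.36, 1.46 and 1.55 FPKM in A549 and 39.5, 34.3 and 39.1 in BEAS-2B (-3.97 ± 0.07), and E2F1 7.59, 8.93 and 9.27 against 42.9, 48.4 and 44.2 (-2.27 ± 0.08). The inhibitor genes CDKN2A and CDKN2B (-3.63 ± 0.07) were higher in BEAS-2B as well. Higher in A549 were the D-type cyclin genes CCND1 (66.7, 67.1 and 65.9 against 30.8, 34.8 and 27.4 FPKM, 1.08 ± 0.08) and CCND3 (0.64 ± 0.07), their kinase gene CDK6 (0.92 ± 0.08) and CDKN1A, encoding p21 (0.29 ± 0.05, not called with all 18 libraries in 1 fit, adjusted p = 0.39). CDKN1B (adjusted p = 0.56) and E2F3 (adjusted p = 0.29) were not called.

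CDKN2A and CDKN2B lie side by side on the short arm of chromosome 9, at chr9:21967752-21995324 and chr9:22002903-22009313 of GRCh38 as RefSeq places them, and both were listed at 0 in all 3 A549 libraries. A549 is known as a line that has lost CDKN2A from its genome. MTAP, which begins 165.1 kb before CDKN2A and recycles methylthioadenosine, had 3.36, 3.15 and 3.67 FPKM in A549 and 16.2, 15.3 and 14.9 in BEAS-2B (-1.91 ± 0.07). Towards the end of the arm, IFNE (2.001 ± 0.07) and KLHL9 (0.21 ± 0.07, not called without A549 replicate 1, 0.19) were higher in A549, HACD4 was at 0, 0 and 0.03 FPKM in A549 and 3.92, 2.8 and 3.9 in BEAS-2B (-2.16 ± 0.10), and FOCAD (1.59 ± 0.07) and MLLT3 (2.42 ± 0.07) were higher in A549. Beyond MLLT3, HAUS6 (0.15 ± 0.05, not called with the GC trend removed or without A549 replicate 1 or 3 or BEAS-2B replicate 3, with adjusted p of 0.05 to 0.08), DENND4C (0.82 ± 0.07), RPS6 (0.68 ± 0.09) and ACER2 (0.81 ± 0.09) were higher in A549 and PLIN2 (-1.21 ± 0.07) in BEAS-2B.

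On the other side, DMRTA1, 479.1 kb after the start of CDKN2A, was higher in A549 (3.37, 3.52 and 2.94 against 1.38, 1.35 and 1.11 FPKM, 0.91 ± 0.08), ELAVL2 (-2.34 ± 0.07) and TUSC1 (-2.04 ± 0.09) were higher in BEAS-2B, and CAAP1 (0.64 ± 0.05), PLAA (0.53 ± 0.05) and IFT74 (0.55 ± 0.09) were higher in A549. Of the 19 genes of this list tested, 12 were higher in A549 and 7 in BEAS-2B (1 and 4 of these passed the filter through that line alone), so that the genes low in A549 did not form 1 unbroken run. SLC24A2 and TEK were near 0 in both lines.

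**Figure D4:**
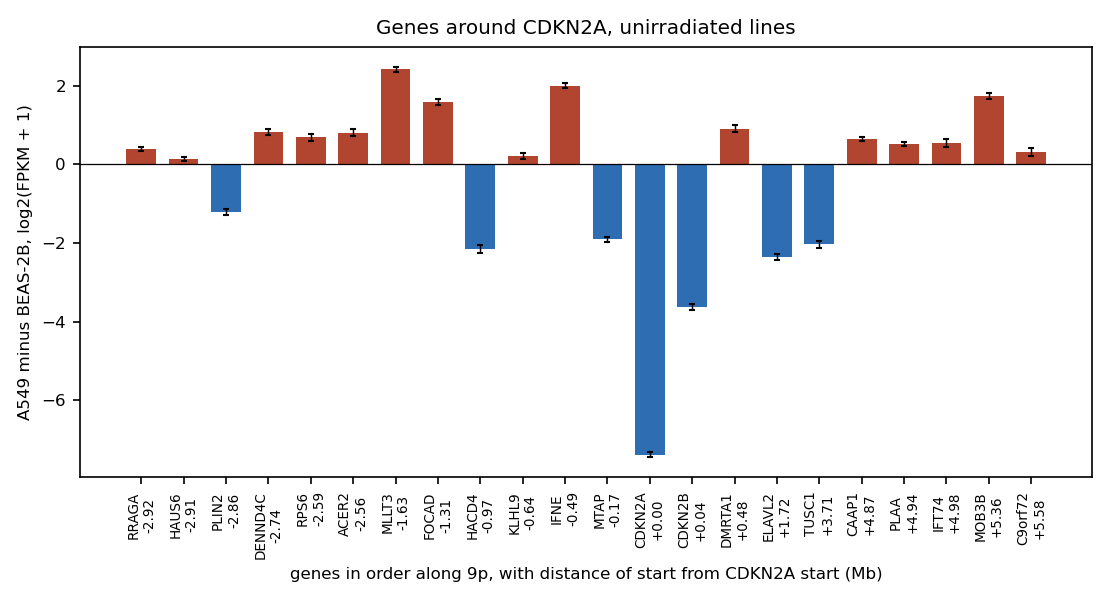
Difference A549 minus BEAS-2B on the log2(FPKM + 1) scale for tested genes in their order along 9p, with the distance of each gene's start from that of CDKN2A in Mb. Bars are differences of means of 3 libraries and whiskers are limma's standard errors. CDKN2A (-7.38) and CDKN2B (-3.63) are the lowest, with higher genes on both sides. RRAGA, MOB3B and C9orf72 were added to the figure after their values were seen and are not in the counts of the list.

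Targets of p53 were mostly higher in A549. Of 27 genes of this list tested, 21 were higher in A549 and 4 in BEAS-2B, though only 6 and 2 by at least 1. The stress cytokine gene GDF15 had 76.7, 81.9 and 72.8 FPKM in A549 and 2.18, 1.85 and 1.96 in BEAS-2B (4.70 ± 0.07), TP53I3 92.8, 89.8 and 92.8 against 6.18, 5.23 and 5.37 (3.82 ± 0.06), and SESN2 (2.13 ± 0.08) and the death gene BBC3 (1.71 ± 0.13) followed. The translesion polymerase gene POLH (-1.60 ± 0.08), CCNG1 (-1.01 ± 0.06), TP53INP1 (-0.77 ± 0.07) and ZMAT3 (-0.53 ± 0.07) were higher in BEAS-2B. BAX (adjusted p = 1) and PPM1D (adjusted p = 0.083) were not called. DPYSL4, a p53 target in which the study took an interest, had 2.04, 2.02 and 2.3 FPKM in A549 and 0.05, 0 and 0.02 in BEAS-2B (1.61 ± 0.07). It is not a member of the list counted here, and it passed the filter through A549 alone.

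Genes of sugar breakdown were divided. Of 29 genes tested, 9 were higher in A549, 15 in BEAS-2B and 5 were not called. The genes higher in A549 included the pentose phosphate enzymes PGD, TKT (1.34 ± 0.06) and TALDO1 (0.62 ± 0.06), the glucose transporter SLC2A3 (17.3, 18.4 and 17.7 against 0.95, 1.02 and 0.89 FPKM, 3.27 ± 0.07) and PFKFB3, which makes an activator of phosphofructokinase (2.57 ± 0.07), although PGLS of the pentose phosphate pathway was higher in BEAS-2B (-0.76 ± 0.06). Higher in BEAS-2B were ALDOC (-2.25 ± 0.06), hexokinase HK2 (1.76, 1.77 and 1.7 against 12.3, 14.1 and 9.55 FPKM, -2.23 ± 0.11), ENO2 (-2.22 ± 0.07) and PFKL (-1.99 ± 0.06). The lactate dehydrogenase genes were split, with LDHB higher in A549 (1.08 ± 0.09) and LDHA in BEAS-2B (-0.92 ± 0.07). PFKP (adjusted p = 0.22) and GPI (adjusted p = 0.065) were not called. PGD, TKT and TALDO1 also stand among the NRF2 targets, so that these lists are not independent.

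Cholesterol synthesis genes, which SREBF2 drives when sterols are low, were mostly higher in BEAS-2B, with 17 of 23 genes of sterol and fatty acid synthesis higher there, 11 by at least 1, and 5 in A549. INSIG1, which retains SREBP, had 6.13, 5.42 and 4.8 FPKM in A549 and 27.98, 27.3 and 28.6 in BEAS-2B (-2.17 ± 0.08). SREBF1 (1.36 ± 0.06), ACLY (0.83 ± 0.07), SCD (0.64 ± 0.08) and PMVK (0.48 ± 0.10) were higher in A549, and MVD was not called (adjusted p = 0.24).

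Genes for plasma proteins, mostly known from liver, and for their transcription factors were listed as well. Of 35 such genes, 17 were tested, 13 were higher in A549 and 4 in BEAS-2B, but 11 and 2 of these had passed the filter through that line alone, so that the count gives no direction for the list. Its median was 2.0, 0.06 with no filter and 0.66 with at least 1 FPKM in all 6 libraries. FOXA2 had 30.9, 31.8 and 30.3 FPKM in A549 and was listed at 0 in each BEAS-2B library. Ceruloplasmin CP was higher in A549 too (3.29 ± 0.09). CFB (-1.70 ± 0.08), APOE (-1.38 ± 0.08), SERPINA1 (-1.21 ± 0.10) and vitronectin VTN (-1.02 ± 0.13) were higher in BEAS-2B. ALB, AFP, TTR, APOA1 and HNF4A stayed under 0.2 FPKM on average in both lines.

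The comparison was repeated in the 6 libraries of both lines irradiated with 10 Gy, which the filter and the calls in the controls had not used. The lists were chosen with earlier results of these data known, so that their medians here are a description. There, 81.5% of the same genes were called, 35.6% of all higher in A549 and 45.9% in BEAS-2B. Of the 3468 genes called in the controls with a difference of at least 1, 3457 (99.7%) had the same sign, and 2840 (81.9%) passed the same rule in the same direction. None of them passed it in the opposite direction. Of all 10525 genes called in the controls, 155 (1.47%) were called in the opposite direction. Median differences of the lists were close to those of the controls for NRF2 targets (1.76), replication genes (-1.40), mitosis genes (-1.10) and TGF-beta genes (1.52), and stood at -1.21 beside -1.54 for inflammasome genes and 1.73 beside 2.26 for cytokines. The median of aldo-keto reductases was 2.89 after 10 Gy beside 2.42 in the controls. The median of the 7 keratins tested was -0.05 after 10 Gy beside 1.13 in the controls, that of aldehyde dehydrogenases 0.27 beside -0.10, that of mesenchymal genes -0.39 beside -0.04, and that of other phase I and II enzymes 0.65 beside 0.28. Whether the differences of the lines changed with radiation was not tested.

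**Figure D5:**
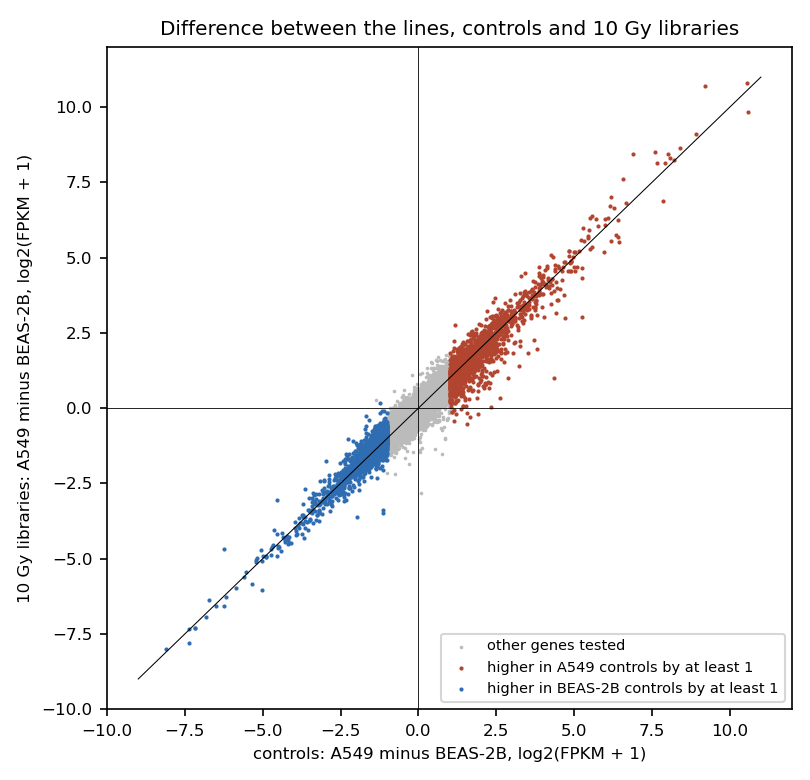
Difference A549 minus BEAS-2B on the log2(FPKM + 1) scale in the 10 Gy libraries (vertical axis) against that in the controls (horizontal axis), 1 point per gene tested, with the line of equal values. Red and blue points differed by at least 1 in the controls, and 99.7% of them lie on the same side of 0 in both.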

How the data were processed

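The authors extracted RNA from control and irradiated BEAS-2B, A549 and H446 cells, sequenced poly(A) libraries from 1 end (50 bases, BGIseq500), and deposited 1 table with a value per gene and library, without pooling. The deposited unit is read here as FPKM, inferred from the values alone, since they carry 2 decimals, sum to unequal totals and rise in larger steps for short genes. The submitters' processing notes name HISAT2 2.0.4, Bowtie2 2.2.5, RSEM 1.2.12 and the build hg38, with no roles, and the annotation is not given in the sources used here. Of 18475 Entrez identifiers, 18181 were matched to RefSeq names and positions (GRCh38.p14, the same primary build).

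Depth per library is unknown, since no counts were given, and no counting interval is printed. Steps between low values of short genes put the value of 1 read in BEAS-2B at 0.881 to 0.905 times that in A549 replicate 1, from 8 to 12 genes per library, and at 0.956 to 0.973 in the other A549 libraries. Only ratios near 1 were kept for this, so that a larger difference in depth could not have shown. Transcript GC content, from the longest GENCODE 29 transcript, correlated with the difference between the lines at -0.0627 (Spearman, over genes, a description).

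The 6 control libraries were grouped by their labels. Genes with at least 1 FPKM in at least 3 of them were tested on log2(FPKM + 1) with limma 3.58.1 (lmFit, eBayes with a trend) in R 4.3.3, and p-values were adjusted by Benjamini-Hochberg over all 12467 genes, with a threshold of 0.05. A second rule asked for an absolute difference of at least 1. Of the genes under the filter, GPX2 and NLRP3 are given with an exact permutation test, and the others without a test. No set test was run, and lists are described by counts and medians. Gene lists, members and motifs were chosen with earlier results of these data known. Named are the 12 largest differences in each direction (mean of at least 10 FPKM in the higher line, groups not overlapping, genes marking sex left out), up to 4 members higher and 4 lower and 2 not called per list, and all aldo-keto reductases, keratins, NRF2 regulators, 9p, inflammasome and marker genes, as far as they are described. Markers are given by their sums and by those that define a cell type. Of the not called members, those with the highest mean were taken. Chosen after their values were seen were B2M, CCL2, CLDN7, CXCL2, CXCL8, EGFR, EPCAM, GCLM, HMOX1, IL1A, IL6, LDHA, LDHB, ME1, NFKBIA, NQO1, PCNA, PGLS, PRDX1, TALDO1, TKT, TNFAIP3, VIM, the targets named for their promoter letters and the genes of the closing observations. Lists share genes. Some members that the rule would name are not reported here. Counts and medians were taken in Python 3.11.15 with numpy 2.4.6 and pandas 2.3.3, and plots were drawn with matplotlib 3.10.9. The fit was tested on simulated data.

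Alternatives were quantile normalization, median of ratios scaling, no variance trend, no filter, at least 1 FPKM in all 6 libraries, a pseudocount of 0.1, a replicate block, all 18 libraries in 1 fit, an adjusted p under 0.01, removal of each library's GC trend (loess, span 0.5) and leaving out each library. Replicate numbers did not pair the samples.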

Additional observations from a re-analysis of the deposited data

Results flagged for a closer look

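In 3 of the named genes the libraries of the lines did not overlap before or after radiation, but the sign of the difference was opposite. KRT80 was higher in A549 in the controls (1.13 ± 0.07) and lower after 10 Gy, at 20.2, 19.3 and 19.1 FPKM against 26.4, 28.6 and 24.5 (difference -0.42). IRF1 was higher in A549 in the controls (0.57 ± 0.07) and lower after 10 Gy, at 23.7, 26.9 and 25.5 FPKM against 36.5, 27.9 and 37.1 (-0.39). TP53INP1 was lower in A549 in the controls (-0.77 ± 0.07) and stood at 15.4, 16.2 and 15.98 FPKM against 12.7, 5.69 and 14.9 after 10 Gy (0.57, adjusted p = 0.063, not called), a value that rests on the BEAS-2B replicate 2 at 5.69, since it was 0.19 (adjusted p = 0.047) without that library, left out after the data were seen. The difference between the control and the irradiated comparison was not tested.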

How the results depend on the processing

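The count of genes called stayed between 8856 and 12312 under all alternatives, against 10525 (84.4% of those tested), and each direction stayed within 1.5 times its count. Asking for at least 1 FPKM in all 6 libraries left 2220 genes with a difference of at least 1 in place of 3468, of them 957 higher in A549 in place of 1648, because it removes genes near 0 in 1 line. It also turned the median of the epithelial list to 0.50 and that of the plasminogen list from 0.08 to -0.12. Removal of the GC trend put the median of aldehyde dehydrogenases at 0.0067, and without BEAS-2B replicate 2 it stood at -0.05. Lists described with no count of genes that passed the filter through 1 line alone held at most 4 such genes. With no filter, medians were -0.01 for epithelial genes, 0.08 for keratins, 0.07 for other phase I and II enzymes, -0.07 for aldehyde dehydrogenases, -0.11 for mesenchymal genes and 0.21 for 9p genes, because genes near 0 in both lines enter. With at least 1 FPKM in all 6 libraries they were 0.02 for other phase I and II enzymes, -0.47 for sugar breakdown and -1.10 for inflammasome genes, and with a pseudocount of 0.1 they were 3.93 for plasma proteins, -0.78 for epithelial and 1.37 for collagen genes. The median of sugar breakdown was -0.30 in the main fit, -0.51 under quantile normalization and -0.17 with the GC trend removed. That of mesenchymal genes was 0.05 under quantile and median of ratios scaling. That of the plasminogen list was 0.19 under quantile normalization, 0.17 under median of ratios scaling and 0.18 with the GC trend removed. Under median of ratios scaling, 5208 genes were called higher in A549 and 5313 in BEAS-2B. With a difference of at least 1 as well, these counts were 1845 and 1595, against 1648 and 1820 in the main fit. With the GC trend removed they were 1701 and 1694. Leaving out 1 library gave 10047 to 10706 genes called and 3447 to 3501 with a difference of at least 1. With the replicate block, 10473 genes were called. The deviations of same-numbered libraries from their line's mean correlated at -0.0262, -0.0943 and -0.102, so that the numbers were not taken as pairs. The block changed no call of a named gene but that of GPI, which it gained. With 1 irradiated library dropped, BEAS-2B 10 Gy replicate 2, a choice made after the data were seen, 2816 genes passed the rule of size in controls and irradiated libraries, in place of 2840. Among named genes the sign turned only in those not called, namely under quantile normalization ADH5 (0.013), AKR1A1 (0.047), AP1M2 (-0.023), CALD1 (0.13), CDKN1B (0.028), JUP (0.030), TGFB2 (0.045) and TXNRD1 (0.057), under median of ratios scaling AKR1A1 (0.034), CALD1 (0.053), CDKN1B (0.040), E2F3 (0.010), GINS3 (0.015), JUP (0.0049), OAS3 (0.012), TGFB2 (0.0083) and TXNRD1 (0.059) and with the GC trend removed AKR1A1 (0.052), ALDH4A1 (0.0067), JUP (0.067) and MVD (0.053). CALD1 alone of these passed the threshold with the other sign (adjusted p = 0.035). When 1 library was left out, the sign turned in AP1M2 (-0.032 to 0.14), AXL (-0.052 to 0.14), BAX (-0.032 to 0.044), CDKN1B (-0.093 to 0.037), COL1A1 (-0.019 to 0.15), GSTO1 (-0.030 to 0.13), JUP (-0.16 to 0.069), OAS3 (-0.13 to 0.033) and TXNRD1 (-0.096 to 0.0059). Calls lost under an alternative are given beside the gene, apart from MTRNR2L2 under quantile normalization (0.15) and C9orf72 without A549 replicate 1 (0.28, adjusted p = 0.053), and calls were gained by ADH5, AXL, BAX, COL18A1, COL1A1, ETV5, GPI, GSTO1, KRT8, PFKP, PLAUR, PPM1D, TAPBP, TGFB2 and TXN under at least 1 alternative. As depth is unknown, so is the sampling error of values of a few FPKM.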

Other observations

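Several gene families outside the lists differed between the lines, and were picked after their values were seen. Metallothioneins bind zinc and copper. MT1E had 0.19, 0.18 and 0.18 FPKM in A549 and 118, 120.4 and 133 in BEAS-2B, while MT1X went the other way with 213, 224 and 185 against 51.6, 63.2 and 49.6 (1.90 ± 0.09), and MT2A was high in both (1746, 1830.3 and 1445 and 1032, 1291 and 998 FPKM, 0.60 ± 0.12). These genes are nearly identical in sequence, so that the division of reads among them is uncertain. All 4 BEX genes of the X chromosome tested were higher in BEAS-2B, and 1 of them passed the filter through that line alone. BEX1 was listed at 0 in A549, whereas BEX3 had 139, 136 and 142 FPKM in A549 and 165, 148 and 169.5 in BEAS-2B (-0.21 ± 0.06), a call lost under quantile (-0.05) and median of ratios scaling (-0.12). Of 10 PSG genes, known from placenta, 5 were tested, and as all 5 passed the filter through BEAS-2B alone their direction was fixed by it, with PSG5 at 0.06, 0.13 and 0.06 against 32.2, 31.8 and 29.5 FPKM (-4.89 ± 0.07). In the DPYSL family, DPYSL3 had 128, 125 and 128 FPKM in A549 and 0.27, 0.29 and 0.18 in BEAS-2B (6.68 ± 0.06), far above its relative DPYSL4.

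Regulators of body position also differed. Of 23 HOX genes tested, 16 were higher in A549 and 5 in BEAS-2B, and 7 and 3 of these passed the filter through that line alone. HOXB8 had 8.75, 8.26 and 8.44 FPKM in A549 and 0.26, 0.32 and 0.11 in BEAS-2B (2.95 ± 0.08), HOXB9 20.2, 20.4 and 17.8 against 4.66, 6.17 and 4.6 (1.75 ± 0.10), and HOXC8 was higher in BEAS-2B (-1.12 ± 0.10). TBXT, the brachyury gene of early mesoderm, had 78.9, 82.5 and 80.9 FPKM in A549 and was listed at 0 in each BEAS-2B library (6.35 ± 0.06). GATA3 was higher in A549 (2.03 ± 0.07) and GATA2 in BEAS-2B (-2.49 ± 0.08). At the cell surface, 13 of 17 integrin subunit genes tested were higher in A549 and 4 in BEAS-2B, 3 and 3 of them with the filter passed through that line alone, with ITGB1 at 1092, 1076 and 1103 against 438, 439 and 411 FPKM (1.34 ± 0.06), and the hyaluronan receptor gene CD44 had 249, 253 and 248 against 50.7, 54.7 and 48.2 (2.27 ± 0.06). IGFBP4 had 785, 811 and 752 FPKM in A549 and 46.9, 51.7 and 44.3 in BEAS-2B (4.01 ± 0.07), and IGFBP7 3.31, 3.52 and 3.65 against 158, 171 and 164 (-5.20 ± 0.06). CLDN2 was higher in A549 (15.6, 15.4 and 15.5 against 0.07, 0.02 and 0 FPKM, 4.002 ± 0.07) and CLDN11 in BEAS-2B.

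The median difference of the genes tested varied by chromosome, given as a description with no test. It was highest on chromosome 14, at 0.50 over 412 genes, of which 74.0% had the higher mean in A549, and lowest on chromosome 21, at -0.70 over 128 genes, of which 25.8% did. Chromosomes 2 (0.28 over 832 genes) and 4 (0.23 over 441) were also above 0, and chromosomes 18 (-0.55 over 177) and 9 (-0.48 over 516) below. Copy numbers of these cells were not analysed here.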
